A study of Mus musculus with 9 samples.

Results

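The genes described here encode the laminin chains, the nidogens and the integrin subunits, that is, the core of the basement membrane and the cell surface receptors that bind it and other matrix proteins. They were chosen by symbol: the integrin alpha and beta genes, the laminin alpha, beta and gamma chain genes, and Nid1 and Nid2. The rule took 39 of the 34590 gene symbols in the count files, and the 34 with a summed count of 90 or more over the 9 libraries are described. The 5 left out were Itgae (75 counts in all), Itgb7 (63), Itgax (33), Itgb6 (18) and Itgad (12), and the described genes nearest to the limit were Lamb3 (209), Itgal (295) and Itga7 (296). The data were RNA-seq counts from telencephalons, the embryonic forebrain hemispheres, of E12.5 mouse embryos. Wild-type (WT) embryos gave 5 libraries, and double knockouts (dKO) of Lats1 and Lats2 gave 4. LATS kinases act in the Hippo pathway, where they keep the coactivators YAP and TAZ in check. Per the labels, each library came from its own embryo, the strain background was mixed in both groups, and the deletion was driven by Nestin-Cre. Nestin regulatory sequences drive Cre in neural progenitors, so cells of other lineages in the same tissue are not its main target. Whether the WT embryos carried Cre or floxed alleles, and which exons were floxed, is not given in the sources used here.

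A laminin is a trimer of 1 alpha, 1 beta and 1 gamma chain, joined inside the cell before secretion, and laminin trimers polymerize into the sheet on which a basement membrane is built. Nidogens bridge the laminin sheet to type IV collagen and perlecan. Integrins are pairs of an alpha and a beta subunit that span the membrane: the alpha subunit largely sets the ligand, and the beta tail joins the actin cytoskeleton through talin, kindlin and their partners. In the embryonic cortex, radial glia hold on to the pial basement membrane by their basal endfeet, while endothelial cells, pericytes and meningeal fibroblasts make much of the vascular and pial matrix.

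Gene counts summed to between 12906561 (WT 1) and 45803152 (dKO 1) per library. The share of reads in no gene set WT 2, 3 and 4 apart (39.3% to 41.3%) from WT 1, WT 5 and all dKO libraries (32.0% to 35.6%), so results are also given without WT 2, 3 and 4, which leaves 2 WT and 4 dKO libraries. Lats1 was at 125 to 136 CPM (counts scaled to a common library size) in WT and at 58.8 to 61.3 in dKO, and its difference relative to the library was -1.15 on the log2 scale (SE 0.04; adjusted p = 3.12e-08). Lats2 was higher in dKO (43.4 CPM ± 9.46, SD, n = 4) than in WT (27.0 ± 6.18, n = 5), which does not check its deletion, because counts over a whole gene include exons outside a deleted part. Among markers of the labelled tissue, the forebrain factors Lhx2 and Pax6 were at 202 ± 5.38 and 144 ± 8.21 CPM in WT and at 191 ± 10.6 and 139 ± 5.96 in dKO.

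A fixed volume of synthetic ERCC RNA had been added per counted cell, so 2 scales were used. The first is relative to the library (CPM after TMM scaling), which sets a gene against the typical gene of its library. The second is per cell (counts per 1000 spike-in counts). Gene counts per spike-in count were 58.1 ± 6.10 (SD, n = 5) in WT and 79.1 ± 5.90 (SD, n = 4) in dKO, a difference of 0.45 on the log2 scale (two-sided exact permutation test over 126 assignments, p = 0.00794). The median log2 difference over all 17182 genes tested was accordingly -0.01 relative to the library and 0.43 per cell.

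Relative to the library, 12 of the 34 genes rose in dKO and 0 fell (quasi-likelihood test of edgeR; p adjusted over all genes by Benjamini-Hochberg, threshold 0.05). Of all genes tested, 13.7% rose and 12% fell. Among the genes that rose were the laminin chains Lama1, Lama2, Lamb2 and Lamc1, the integrin alpha subunits Itga1, Itga5, Itgav and Itgal, and the beta subunits Itgb1, Itgb5 and Itgb8. The median log2 difference of the 34 was 0.20, against -0.01 over all genes. At an unadjusted p under 0.05, edgeR gave 13 higher and 0 lower, and DESeq2 and limma-voom also called 0 lower. In 7 of the 34 the CPM of all dKO libraries lay above those of all WT libraries, and in 0 they lay below, while over all genes 12.6% and 9.74% did so. Together the genes held 0.141% to 0.152% of gene counts in the WT libraries and 0.169% to 0.194% in the dKO libraries. Without WT 2, 3 and 4, the rises past the threshold were Lamb2, Itgb1 and Itgb8, 3 in all, and over all genes the count of rises went from 2355 to 407.

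**Figure D1:**
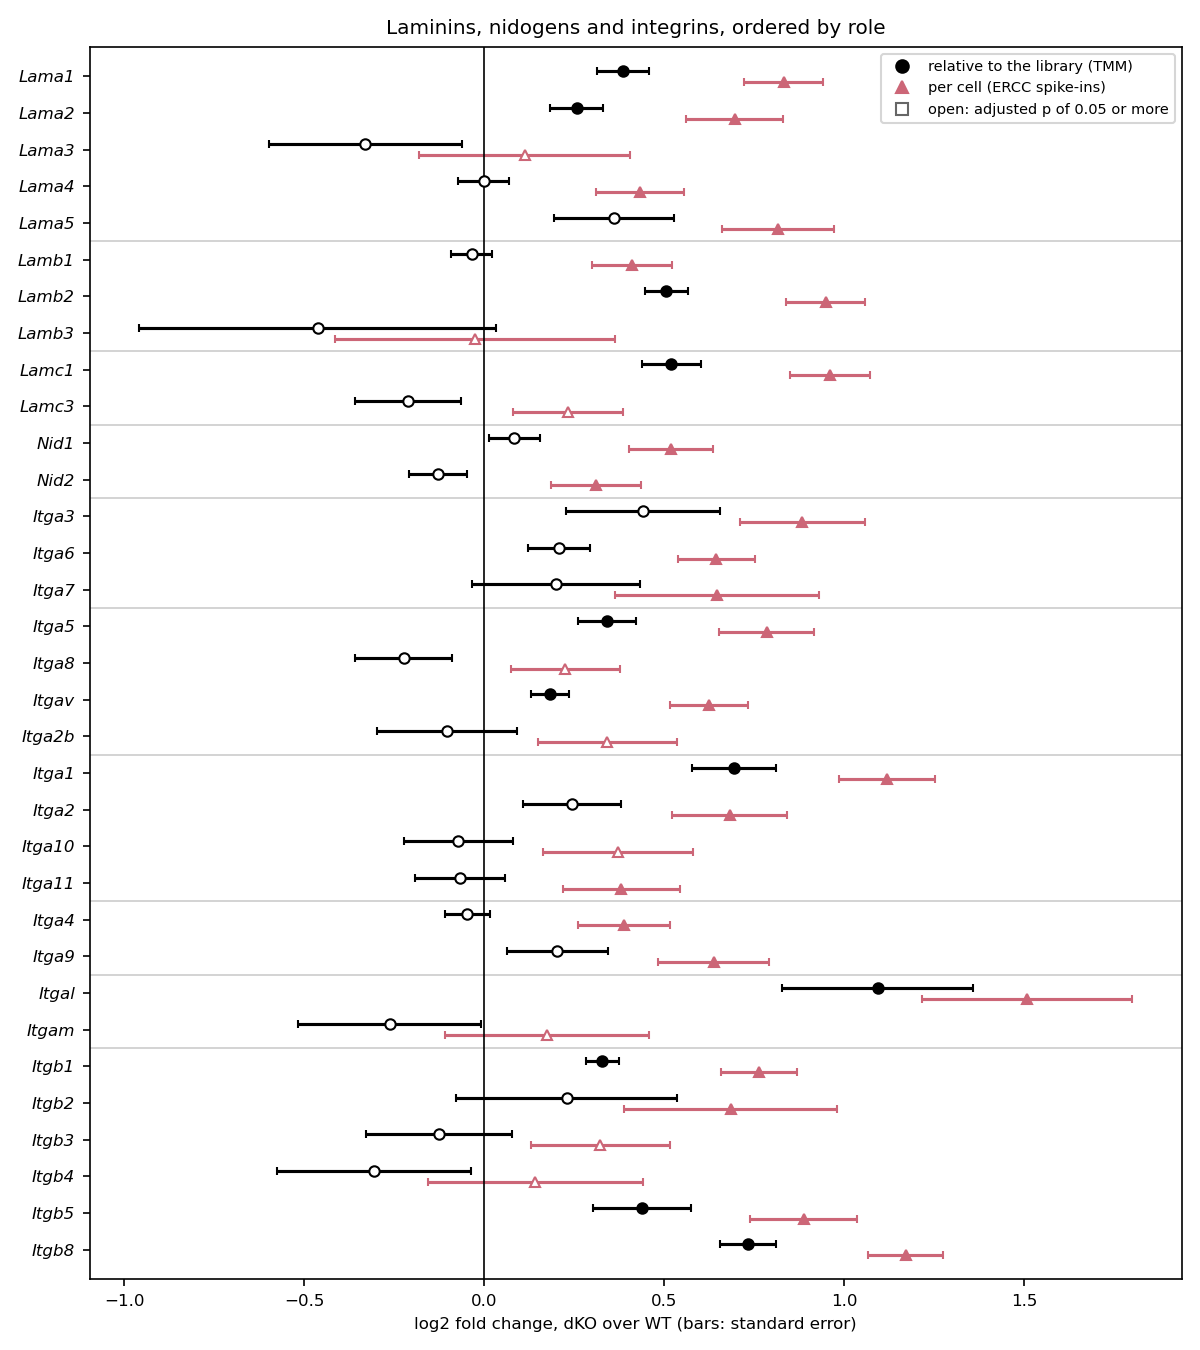
Log2 difference of dKO over WT for laminins, nidogens and integrins, ordered by role, relative to the library (black circles) and per cell (red triangles), with standard errors as bars and open symbols where the adjusted p was 0.05 or more. Filled black circles mark genes that rose relative to the library, and each triangle lies to the right of its circle.

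Lamb2, Itgb1 and Itgb8 were past the threshold in all libraries and also without WT 2, 3 and 4, so the stretch of 250 bases before each of their annotated starts is shown (RefSeq, GRCm38.p6, 5′ to 3′ along the gene; the counts themselves were made on mm9). Capitals mark the letters GGAATG, the core that TEAD factors, the DNA-binding partners of YAP and TAZ, recognise.
Lamb2 (chr9:108479612-108479861, plus strand): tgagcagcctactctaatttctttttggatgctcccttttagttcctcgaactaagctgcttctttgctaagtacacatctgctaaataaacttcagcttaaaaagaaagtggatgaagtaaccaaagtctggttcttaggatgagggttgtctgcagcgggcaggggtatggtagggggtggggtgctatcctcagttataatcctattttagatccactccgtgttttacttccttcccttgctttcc
Itgb1 (chr8:128685404-128685653, plus strand): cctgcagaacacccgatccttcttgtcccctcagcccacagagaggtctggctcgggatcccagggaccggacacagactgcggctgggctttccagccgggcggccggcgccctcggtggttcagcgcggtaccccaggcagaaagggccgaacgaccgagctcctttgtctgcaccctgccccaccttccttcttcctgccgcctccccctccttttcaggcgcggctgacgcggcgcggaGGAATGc
Itgb8 (chr12:119238277-119238526, minus strand): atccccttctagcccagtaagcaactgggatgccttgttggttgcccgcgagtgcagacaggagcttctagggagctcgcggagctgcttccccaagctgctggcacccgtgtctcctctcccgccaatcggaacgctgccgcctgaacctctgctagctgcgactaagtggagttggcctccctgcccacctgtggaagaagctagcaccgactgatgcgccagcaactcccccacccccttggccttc
GGAATG was searched on both strands in the 300 bases from 250 before to 50 after each start, and it stood in the window of Itgb1 with its first base at -7, but not in those of Lamb2 and Itgb8. Of the 34 genes, 21 matched the promoter table by symbol, 8 of them among the 12 that rose. The core was present in 4 of the 21 (Lamb3, Nid1, Itga10 and Itgb1), of which 1 rose, and in 16.6% of all 27025 symbols in the table (14.7% of its 32851 promoters). TGANTCA, the site of AP-1 factors, was in 2 of the 21 (Itga3 and Itga9), neither of them a gene that rose, and in 8.97% of all symbols (7.81% of promoters). The G and C content of the printed stretches was 43.6% for Lamb2, 68.0% for Itgb1 and 62.4% for Itgb8, with a median of 52.4% over all promoters. A match to such short letters is a description of the window and not of binding.

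Levels can be compared between genes only per length, here as CPM per kb of merged exon (GENCODE M21). Itgb1, the beta subunit shared by most matrix-binding integrins, had the highest level in WT at 60.1 ± 0.83 (SD, n = 5). Lamc1 came next at 16.7 ± 0.75. Nid2, Itga6, Lamb2, Lamb1, Nid1 and Lama1 followed within 11.4 to 12.8, and their ranges over the WT libraries overlapped. Itgb8 was at 9.90 ± 0.71 and Itgav at 6.08 ± 0.31, the former overlapping with Lama1. The lowest levels, under 0.2, were those of Itgb4, Lama3, Lamb3, Itga7 and Itgal. In dKO, Itgb1 (75.5 ± 5.42, n = 4) and Lamc1 (24.0 ± 3.61) again came first, and Itgb8 (16.4 ± 2.00) had a higher mean than both nidogens.

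**Figure D2:**
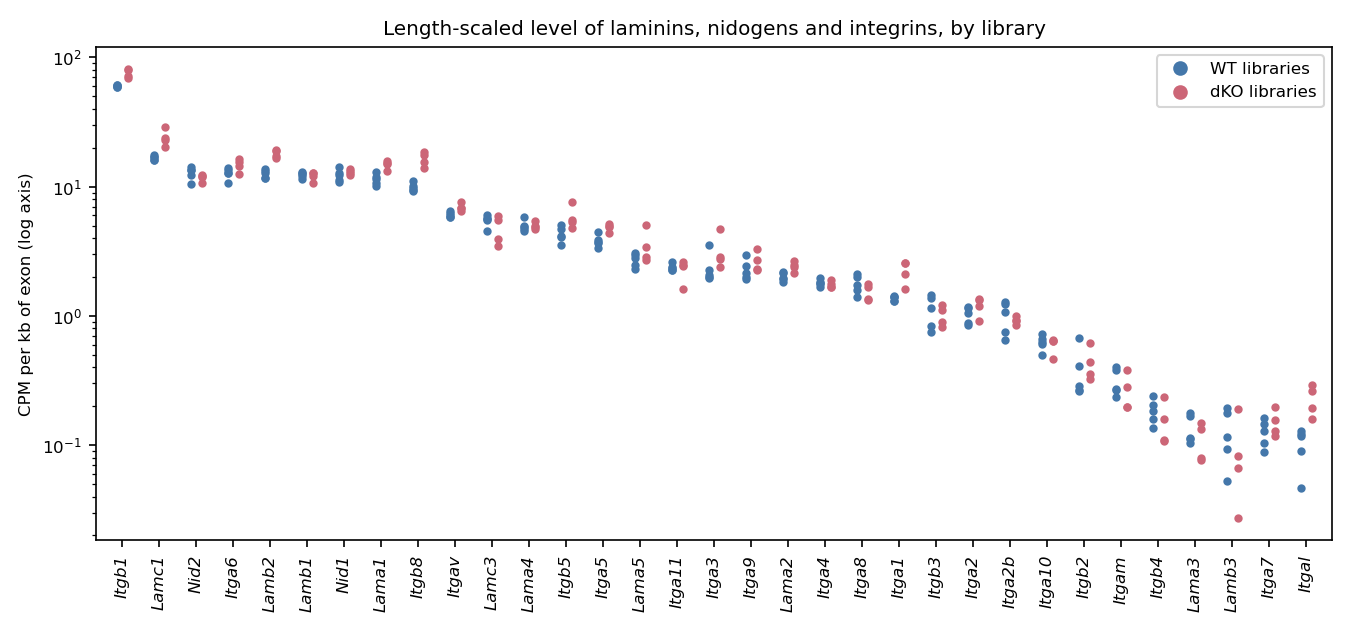
CPM per kb of exon (log axis) of laminins, nidogens and integrins in each library, WT in blue and dKO in red, ordered by their WT mean. The levels run from Itgb1, at 60.1 in WT, to the chains and subunits under 0.2.

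Among the 5 laminin alpha chains, Lama1 and Lama2 rose. Lama1, the chain of the first embryonic basement membranes and of the pial one, was at 125, 111, 98.4, 102 and 115 CPM in WT 1 to 5 and at 128, 148, 153 and 146 in dKO 1 to 4. The groups did not overlap, with dKO 1 and WT 1 close to each other. The log2 difference was 0.39 (SE 0.07; adjusted p = 0.00291), and 0.26 (adjusted p = 0.117) without WT 2, 3 and 4. Lama2, the chain of muscle and vascular basement membranes, was at 31.9, 31.4, 35.7, 30.0 and 35.3 CPM in WT and at 35.2, 38.9, 40.1 and 43.4 in dKO. Its groups overlapped at dKO 1, and the difference of 0.26 (SE 0.07; adjusted p = 0.0248) no longer passed without WT 2 (adjusted p = 0.0610), WT 4 (0.0581) or dKO 4 (0.0569), nor without WT 2, 3 and 4 (0.264).

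Lama4, the chain of endothelial basement membranes, had the same mean in both groups, 60.3 CPM, with SDs of 6.05 in WT and 3.45 in dKO. Its log2 difference was -0.00 (SE 0.07; adjusted p = 0.992). Lama5, a chain of epithelial and vascular membranes, was at 26.1 to 34.9 CPM in WT and at 30.6 to 39.1 in dKO 1 to 3, while dKO 4 was at 58.0. Its difference of 0.36 (SE 0.17) missed the threshold (adjusted p = 0.135) and was 0.15 without dKO 4. Lama3, the chain of the skin laminin, was near 1 CPM in both groups (1.45 ± 0.38 and 1.18 ± 0.40).

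The beta chains differed among themselves. Lamb2, found in the basement membranes of mature vessels, glia and synapses, was at 80.3, 78.1, 71.2, 71.4 and 83.6 CPM in WT and at 101, 105, 114 and 116 in dKO. Every dKO library lay above every WT library. Lamb2 rose by 0.51 on the log2 scale (SE 0.06; adjusted p = 2.60e-04), and by 0.40 (adjusted p = 0.0224) without WT 2, 3 and 4. Lamb1, the widespread embryonic beta chain, was at 113, 129.5, 123, 119 and 127 CPM in WT and at 106, 119.9, 125 and 127 in dKO. These values overlapped throughout, and the difference was -0.03 (SE 0.06; adjusted p = 0.704). Lamb3, the beta chain of the skin laminin, was under 1.3 CPM in every library.

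Of the gamma chains, Lamc1, the partner in most laminin trimers, was at 146, 140.5, 132, 132 and 140.4 CPM in WT and at 197, 167, 191 and 239 in dKO. The groups did not overlap, and dKO 4 was the highest. Lamc1 rose by 0.52 (SE 0.08; adjusted p = 0.00120), while without WT 2, 3 and 4 the difference was 0.46 (adjusted p = 0.0686). Lamc3, a chain of brain and retinal membranes, was at 27.6 to 36.7 CPM in WT and 21.3 to 36.4 in dKO, where dKO 1 and dKO 4 were low, with a difference of -0.21 (SE 0.15; adjusted p = 0.328).

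Neither nidogen passed the threshold. Nid1 was at 75.5, 85.1, 87.9, 78.7 and 98.9 CPM in WT and at 86, 91.5, 95.6 and 89.1 in dKO, a difference of 0.08 (SE 0.07; adjusted p = 0.414). Nid2 was at 53.9, 69.6, 69.0, 63.9 and 73.9 CPM in WT and at 55.6, 62.3, 61.6 and 63.3 in dKO, a difference of -0.13 (SE 0.08; adjusted p = 0.268). WT 1 had the lowest values of both among the WT libraries, and without it Nid2 was lower in dKO by -0.18 (adjusted p = 0.0385).

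Shares of each chain among its class, from CPM per kb, were computed in every library and described without a test. Lamb2 made up 50.3% ± 2.07 (SD, n = 5) of the beta chains in WT and 59.7% ± 0.77 (n = 4) in dKO, and Lamb1 49.2% ± 2.12 and 40.0% ± 0.81. The lowest dKO share of Lamb2 was 58.8% and the highest WT share 53.4%, so the groups did not overlap. Lamc1 was 74.2% ± 1.85 of the gamma chains in WT and 81.2% ± 3.99 in dKO, and Lamc3 24.3% ± 1.93 and 16.3% ± 5.01, both without overlap. Among the alpha chains, Lama4 was 23.5% ± 1.98 in WT and 19.4% ± 1.12 in dKO without overlap, whereas Lama1 (53.5% ± 3.01 and 57.4% ± 2.64) overlapped. Nid1 was 49.0% ± 1.44 of the nidogens in WT and 52.7% ± 1.16 in dKO, without overlap. Summed over each class, the alpha chains were at 21.2 ± 1.04 CPM per kb in WT and 25.9 ± 2.19 in dKO. The beta chains were at 25.1 ± 1.24 and 30.1 ± 2.12, the gamma chains at 22.5 ± 1.09 and 29.5 ± 3.496, and the nidogens at 25.0 ± 2.71 and 24.8 ± 1.12.

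**Figure D3:**
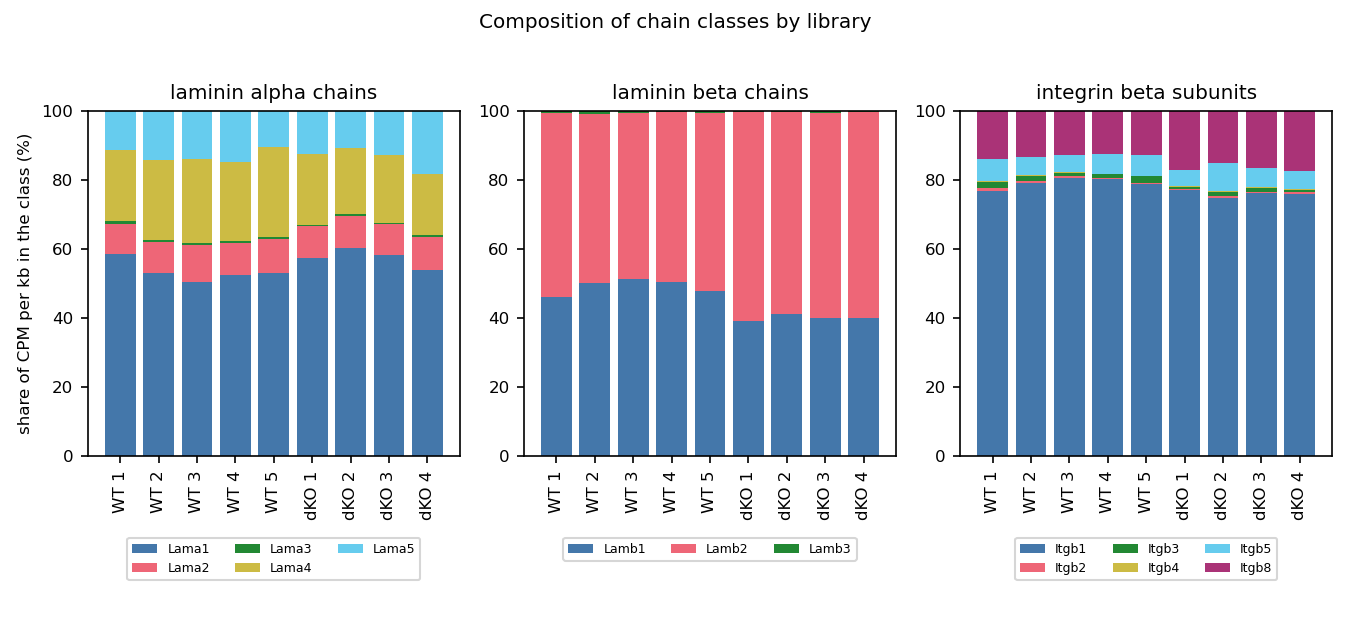
Share (%) of each chain or subunit in its class by library, from CPM per kb, for laminin alpha chains, laminin beta chains and integrin beta subunits. Lamb2 takes a larger part of the beta chains in each dKO library (58.8% to 60.7%) than in any WT library (48.3% to 53.4%), and Itgb8 likewise among integrin beta subunits (15.1% to 17.4% against 12.46% to 14.0%).

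Of the 3 alpha subunits grouped here as mainly laminin receptors (Itga3, Itga6 and Itga7), 0 passed the threshold and 1 was past an unadjusted p of 0.05; Itga1, which binds laminin as well as collagen, is described with the collagen receptors. Itga6, a laminin receptor subunit of neural progenitors, was at 115, 121, 95.6, 126 and 114 CPM in WT and at 139.5, 112, 129.7 and 146 in dKO. Its groups overlapped at dKO 2, and the difference of 0.21 (SE 0.09; adjusted p = 0.102) was 0.28 (adjusted p = 0.0286) without that library. Itga3, which pairs with Itgb1 and acts in the contact of radial glia and neurons with the pial membrane, was at 20.2, 11.3, 12.9, 11.2 and 11.8 CPM in WT and at 15.9, 13.7, 16.2 and 27.0 in dKO. WT 1 and dKO 4 were each the highest of their group. The difference was 0.44 (SE 0.21; adjusted p = 0.155). Without WT 1 it was 0.61 (adjusted p = 0.0255), and without dKO 4 it was 0.22 (adjusted p = 0.405). Leaving out both WT 1 and dKO 4, an omission chosen after seeing the data, gave 0.38 (adjusted p = 0.00835). The same libraries had the highest sums over 14 surface ectoderm markers, 26.8 CPM in WT 1 and 40.7 in dKO 4, against 11.3 to 16.7 in the others. Of these markers, Krt5 was at 0 in WT and Krt15 at 0 in dKO, with Krt8 and Krt18 at 6.495 and 9.25 CPM in WT 1 and at 6.59 and 12.6 in dKO 4. In both WT 1 and dKO 4, Krt5, Krt14 and Krt15 were at 0, and Trp63 was at 0.0764 and 0.0610 CPM. The high sums there were thus not shared by every marker of the list. The part of cells with Krt8 and Krt18 in the Itga3 values was not tested. Itga7, best known from muscle, was near 1 CPM in both groups.

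Subunits that bind the RGD motif of fibronectin and vitronectin include Itga5, Itgav, Itga8 and Itga2b, of which Itga5 and Itgav rose. Itga5, the alpha subunit of the main fibronectin receptor, was at 18.5, 19.1, 16.6, 18 and 21.9 CPM in WT and at 21.6, 24.1, 24.7 and 25.4 in dKO. WT 5 reached into the dKO range, and the rise was 0.34 (SE 0.08; adjusted p = 0.00973), or 0.22 (adjusted p = 0.268) without WT 2, 3 and 4. Itgav, which pairs with Itgb8, Itgb5 and other beta subunits, was at 69.8, 67.5, 62.4, 64.9 and 62.2 CPM in WT and at 73.4, 69.0, 73.4 and 81.1 in dKO. The groups overlapped between WT 1 and dKO 2. Its rise of 0.18 (SE 0.05; adjusted p = 0.0259) did not pass without WT 3, WT 5, dKO 1 or dKO 4, each left out alone (adjusted p 0.0506 to 0.0705), nor without WT 2, 3 and 4 (0.284). Itga8 was at 10.3 to 15.6 CPM in WT and 9.73 to 12.9 in dKO, a difference of -0.22 (SE 0.13; adjusted p = 0.252).

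Itga2b and Itgb3, the subunits of the platelet fibrinogen receptor, did not pass the threshold, with differences of -0.10 (SE 0.19) and -0.13 (SE 0.20). Itga2b was at 6.72 and 7.04 CPM in WT 1 and WT 5 and at 3.54 to 5.88 in the other libraries. Itgb3 was at 8.10 and 8.499 CPM in WT 1 and WT 5 and at 4.45 to 7.15 elsewhere. The summed platelet and megakaryocyte markers were at 17.7 and 15.9 CPM in those libraries, at 17 in dKO 2, and at 10.5 to 14.9 in the rest, with 0 of the 5 tested markers past the threshold and none of the 8 at 0 in all libraries. Their part in these values was not tested.

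Itga1, a collagen and laminin receptor subunit, was the collagen-binding alpha subunit that rose. It was at 24.1, 26.3, 26.2, 24.2 and 26.1 CPM in WT and at 47.7, 30.1, 39.2 and 47.5 in dKO, with no overlap and with dKO 2 the lowest of its group. The rise was 0.69 (SE 0.12; adjusted p = 0.00169). Without WT 2, 3 and 4 the difference was 0.70 (adjusted p = 0.0642). Itga2, Itga10 and Itga11, the other collagen receptor subunits, were at 7.29 ± 1.05, 3.24 ± 0.43 and 12.2 ± 0.69 CPM in WT and at 8.52 ± 1.43, 3.10 ± 0.46 and 11.8 ± 2.32 in dKO, and none of these 3 passed. Itga4 and Itga9, which bind fibronectin, VCAM1 and tenascin, were at 25.2 ± 1.52 and 17.6 ± 3.18 CPM in WT and at 24.4 ± 1.59 and 20.3 ± 3.63 in dKO, again without passing.

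Itgal, the leukocyte alpha subunit that binds ICAMs, was at the lower end of what the counts resolve. It was at 0.306, 0.796, 0.589, 0.768 and 0.845 CPM in WT and at 1.91, 1.05, 1.28 and 1.71 in dKO, from 4 to 33 and from 28 to 86 counts per library. The groups did not overlap, and the rise was 1.09 (SE 0.27; adjusted p = 0.0116), or 1.17 (adjusted p = 0.160) without WT 2, 3 and 4. Its partner Itgb2 (1.16 ± 0.54 and 1.33 ± 0.40 CPM) and the myeloid subunit Itgam (1.56 ± 0.37 and 1.33 ± 0.43) did not pass. Summed over 15 microglia and macrophage markers, the libraries were at 105 to 125 CPM in WT and 128 to 176 in dKO, with dKO 4 the highest. Of these 15, 1 rose (Mrc1, a mannose receptor of brain border macrophages) and 2 fell (P2ry12 and Siglech, of microglia). Mrc1 was the most abundant in every library, at 22.4 to 33.3 CPM in WT and 33.8 to 63.9 in dKO. It made up most of the difference in the sum. Csf1r, the receptor that defines the lineage, was at 22.2 ± 2.77 CPM in WT and 21.4 ± 2.42 in dKO. Ptprc, a marker of leukocytes, was at 2.36 to 2.92 CPM in WT and 3.10 to 6.53 in dKO, without overlap and without passing. The part of these cells in the Itgal rise was not tested.

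Among the beta subunits, Itgb8 and Itgb1 rose without overlap and Itgb5 rose with overlap. Itgb8, which pairs with Itgav to activate TGF-beta and is made by radial glia at contacts with vessels, was at 121, 112, 104, 102 and 108 CPM in WT and at 196, 155, 173 and 204 in dKO. Its rise of 0.73 (SE 0.08; adjusted p = 1.38e-04), 1.66-fold, had the smallest adjusted p of the 34 genes, and was 0.66 (adjusted p = 0.0178) without WT 2, 3 and 4. Itgb1 was at 246, 248, 242, 242 and 249 CPM in WT, an SD of 3.37, and at 324, 284, 295 and 329 in dKO. Its rise was 0.33 (SE 0.05; adjusted p = 6.48e-04), and 0.31 (adjusted p = 0.0480) without WT 2, 3 and 4. Itgb5, a vitronectin receptor subunit that pairs with Itgav, was at 17.9, 14.4, 12.54, 14.8 and 16.7 CPM in WT and at 17, 26.9, 19 and 19.5 in dKO. Here dKO 2 was the highest, and the rise of 0.44 (SE 0.14; adjusted p = 0.0341) was 0.28 (adjusted p = 0.0903) without it, and did not pass without WT 2, WT 3, WT 4 or dKO 4 either (0.0507 to 0.0816). Itgb4, the partner of Itga6 in hemidesmosomes, was at 1.29 ± 0.28 CPM in WT and 1.07 ± 0.42 in dKO. In the composition per length, Itgb8 made up 13.0% ± 0.61 of the beta subunits in WT and 16.5% ± 1.01 in dKO without overlap, and Itgb1 79.2% ± 1.55 and 76.0% ± 0.92 with overlap. From counts not divided by length, Itgb1 was 64.8% ± 1.76 and 59.4% ± 0.52, without overlap.

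**Figure D4:**
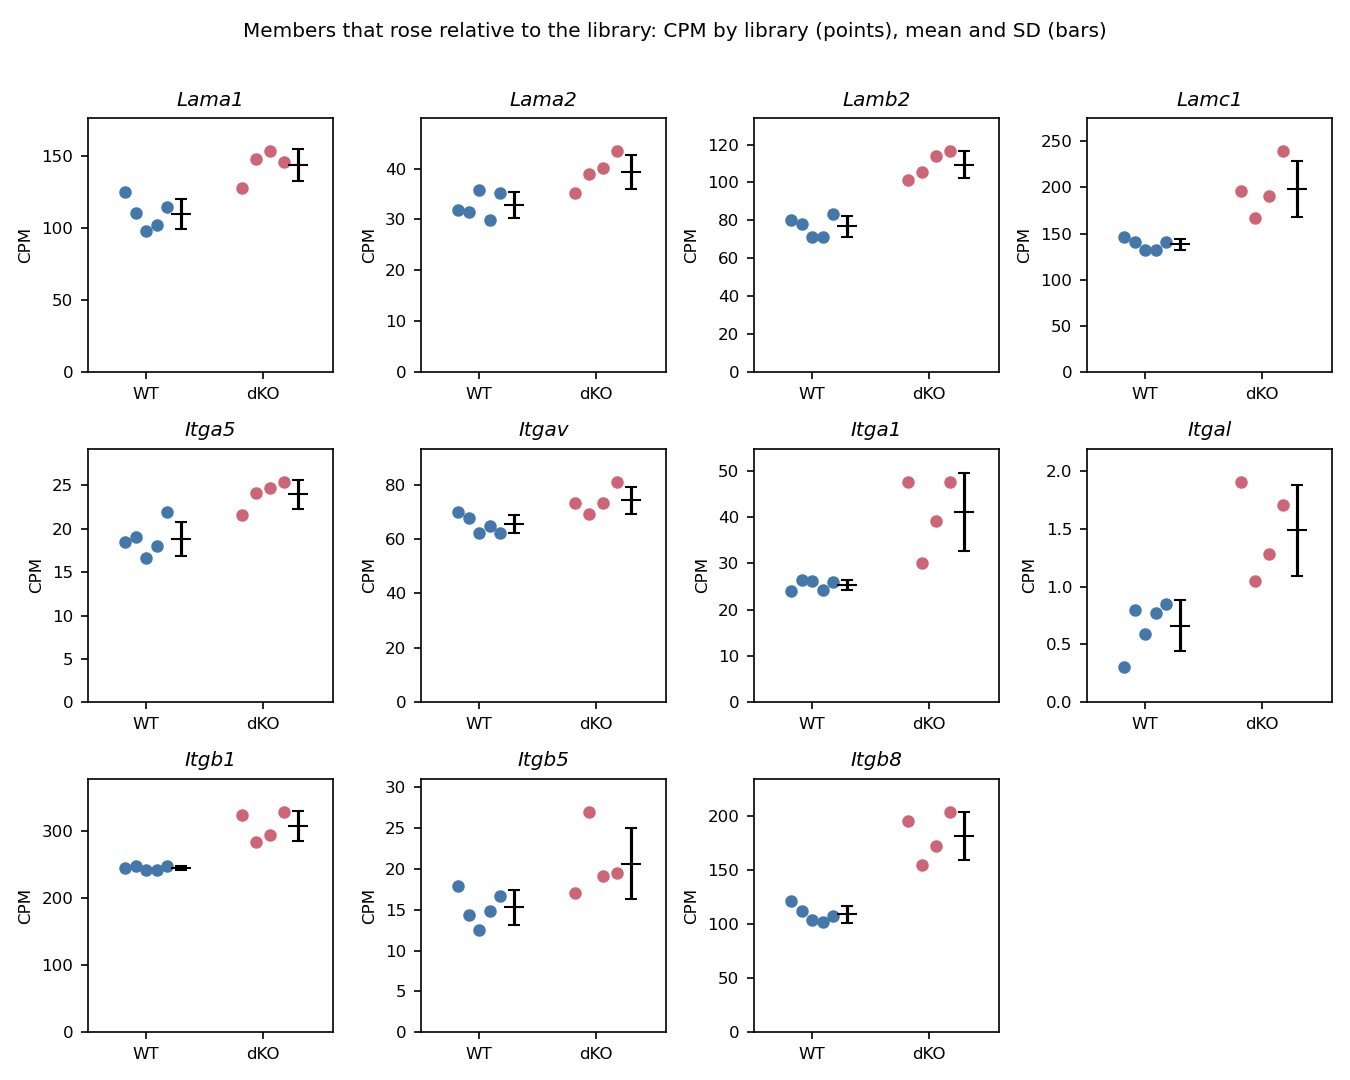
CPM in each library (points; WT blue, dKO red) with mean and SD (bars) for genes that rose relative to the library; each vertical axis starts at 0. The groups are apart in Lama1, Lamb2, Lamc1, Itga1, Itgal, Itgb1 and Itgb8 and overlap in the other panels.

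Per cell, 25 of the 34 genes rose and 0 fell, where 61.1% of all genes rose and 0.698% fell, and the median log2 difference was 0.64 against 0.43 over all genes. Counts of 0 lower were also given at an unadjusted p under 0.05 and by DESeq2 and limma-voom. Itgb8 was at 6.58, 5.59, 6.62, 6.22 and 6.75 counts per 1000 spike-in counts in WT and at 13.7, 13.1, 13.6 and 16.8 in dKO, a rise of 1.17 (SE 0.10; adjusted p = 4.65e-11). Lamb2 was at 3.89 to 5.22 in WT and 7.09 to 9.59 in dKO (0.95, SE 0.11; adjusted p = 1.61e-08). Lamb1, Lama4 and Nid1, which lay close to 0 relative to the library, rose per cell by 0.41 (SE 0.11; adjusted p = 0.00215), 0.43 (SE 0.12; 0.00298) and 0.52 (SE 0.12; 3.88e-04). Those 3 values lie beside a median of 0.43 over all genes. The 9 that did not pass per cell were Lama3, Lamb3, Lamc3, Itga8, Itga2b, Itga10, Itgam, Itgb3 and Itgb4.

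Several per-cell calls changed when a single library was left out, for most of these genes with any of several libraries. Nid2 (0.31, SE 0.13; adjusted p = 0.0309) lost its call without WT 1, WT 2, dKO 2, dKO 3 or dKO 4, each left out alone (adjusted p 0.0519 to 0.0984). Itga11 (0.38; adjusted p = 0.0401) lost it without WT 1, WT 2, dKO 2, dKO 3 or dKO 4 (0.0592 to 0.142). Itga7 and Itgb2 (0.65 and 0.68; adjusted p = 0.0468 and 0.0446) lost it in 6 of the 9 omissions each, and Itga4 (0.39; adjusted p = 0.00956) without dKO 3 (0.0511). Without dKO 1, Lamc3, Itga8, Itga10 and Itgb3 passed (adjusted p = 0.0134, 0.0492, 0.0278 and 0.0351), as did Itga2b and Itgb3 without WT 5 (0.0268 and 0.0282).

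The other genes of the matrix and of its attachment were read from lists and are given relative to the library, where 13.7% of all genes rose and 12% fell. Of 24 basement membrane partners tested, 8 rose and 1 fell (median 0.26). Sparc, a collagen-binding matrix protein, was at 139 to 169 CPM in WT and 353 to 477 in dKO (1.44, SE 0.09). Hmcn1, which links basement membranes of neighbouring tissues, rose by 0.85, Hspg2 (perlecan) by 0.75 and Col4a5, a type IV collagen chain, by 0.56. The main type IV collagen chains Col4a1 and Col4a2 were at 493 ± 54.1 and 249.7 ± 31.3 CPM in WT and at 477 ± 53.4 and 241 ± 29.2 in dKO, and neither passed. Of 12 genes listed as laminin receptors other than integrins or as their partners, 8 rose and 2 fell (median 0.17). The list also holds tetraspanins, a glypican and the ribosomal protein gene Rpsa, so this is not a count of receptors alone. Bcam, a laminin alpha5 receptor, was at 4.29 to 6.88 CPM in WT and 10.9 to 14.5 in dKO (1.21, SE 0.14). The syndecan Sdc2 rose by 0.86 and the tetraspanin Cd151, a partner of laminin-binding integrins, by 0.38, while the syndecan Sdc3 fell by 0.42.

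Of 26 other integrin ligands tested, 7 rose and 3 fell (median 0.03), the falls being near the share over all genes. Thbs1, a thrombospondin, was at 49.9 to 66.9 CPM in WT and 505 to 1084 in dKO (3.74, SE 0.20). The matricellular proteins Ctgf and Cyr61, standard targets of YAP and TAZ, rose by 3.32 and 2.65, and Edil3, an RGD ligand of Itgav integrins, fell by 0.31. The adhesion complex inside the cell, 35 genes tested, had 17 rises and 2 falls (median 0.31). The alpha-actinins Actn1 and Actn4 rose by 1.28 and 0.55 and Tln1 (talin), which binds integrin beta tails, by 0.89. Of 10 trafficking and glycan enzymes, 3 rose and 2 fell (median -0.03), among them P4hb, a collagen prolyl hydroxylase subunit (0.27), and Crtap (0.24), with Large, which glycosylates dystroglycan, at -0.27 and Mgat5 at -0.18. Without WT 2, 3 and 4 the counts of rises and falls were 1 and 0 for basement membrane partners and 2 and 0 for the laminin receptor list. They were 3 and 0 for ligands, 7 and 1 for the adhesion complex and 0 and 0 for the enzymes. Over all genes, 407 then rose and 170 fell. Without WT 1 and dKO 4, the ligands had 3 rises and 5 falls.

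In bulk tissue, fewer cells of a type and less RNA per cell cannot be told apart, so markers of the cells that make these genes are given. Endothelial markers summed to 303 to 395 CPM in WT and 293 to 391 in dKO, and 1 of 16 rose (Flt1, 0.32). Of the most abundant, the endothelial receptor Kdr was at 92.6 ± 9.31 CPM in WT and 94.2 ± 8.10 in dKO, the cadherin Cdh5 at 35.3 ± 4.88 and 33.1 ± 6.09, and Pecam1 at 28.9 ± 3.53 and 32.5 ± 3.63. Lama4 was also at the same mean in both groups, and WT 5 had the highest value of both. Pericyte markers summed to 239 to 269 CPM in WT and 256 to 273 in dKO, with 2 of 11 past the threshold, the actin-associated genes Tagln and Acta2, while Notch3, Pdgfrb and Rgs5, the most abundant, did not pass. Meningeal markers, led by Col3a1, Col1a2 and Lum, summed to 882 to 1108 in WT and 792 to 1184 in dKO, with 0 of 11 past the threshold of edgeR, and 0 with an unadjusted p under 0.05. Radial glia markers summed to 2712 to 3086 CPM in WT and 4116 to 4584 in dKO. Of the 12, 4 were higher and 2 lower, with a median log2 difference of 0.06. The progenitor intermediate filaments Vim and Nes had means of 708 and 783 CPM in WT and 1688 and 1177 in dKO, and the receptor Notch1 374 and 368. Vim and Nes made up most of the difference in the sum. Hes5 and Fabp7 were lower in every dKO library than in any WT library. Hes5 was at 51.7 to 78.1 CPM in WT and 15.9 to 45.4 in dKO, and Fabp7 at 235 to 249 and 191 to 219. Neuron markers summed to 2578 to 3153 in WT and 2205 to 2424 in dKO, with 6 of 11 lower, Tubb3, Dcx and Elavl3 among them, and 0 higher. The part of these marker differences in the rises of Itgb8, Itgb1, Lamb2 and the other genes was not tested.

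**Figure D5:**
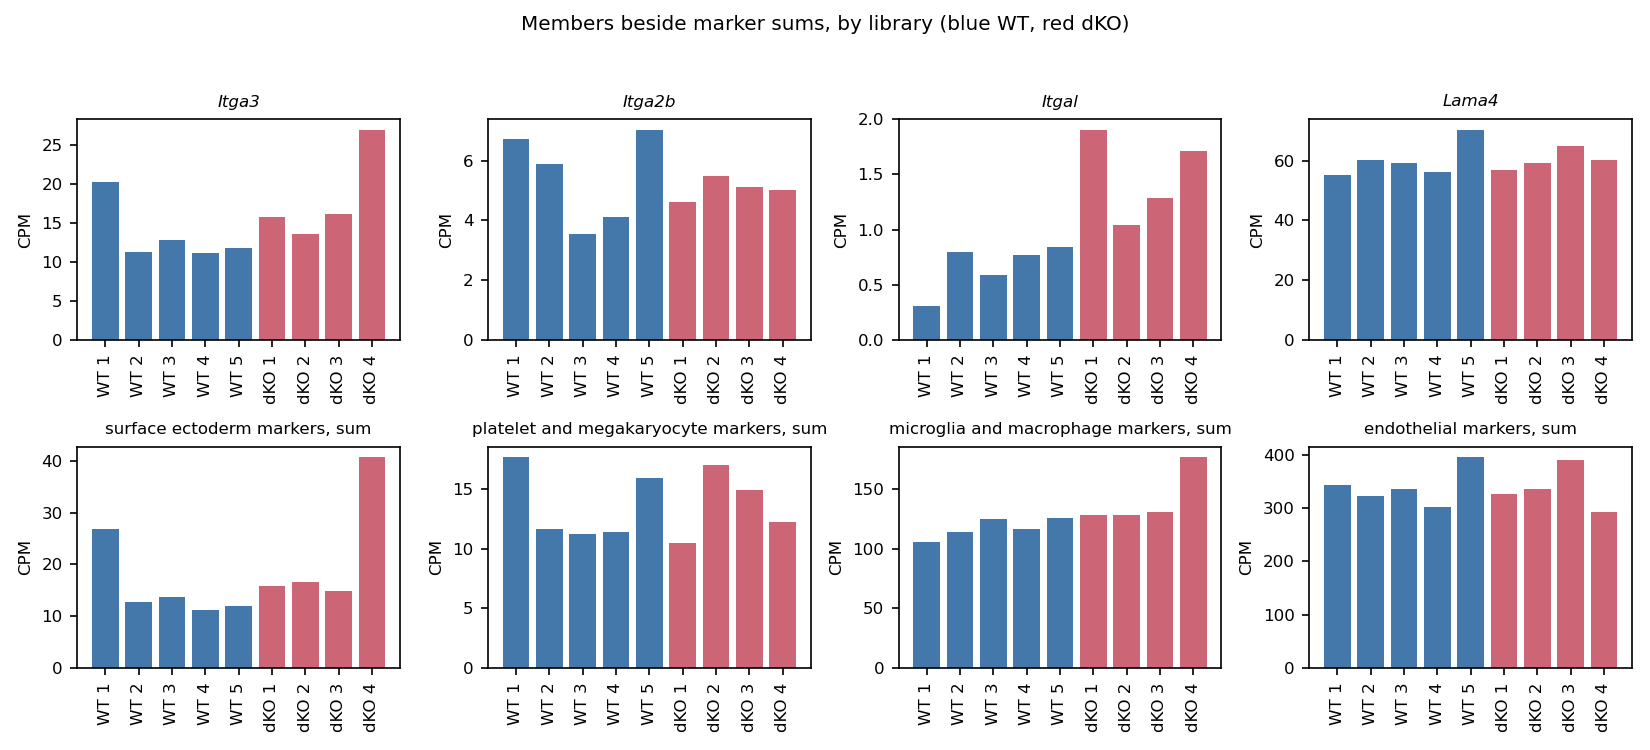
CPM by library of 4 genes (upper row) above the summed CPM of markers of a cell type (lower row), WT in blue and dKO in red, every axis from 0. Itga3 and the surface ectoderm sum are highest in WT 1 and dKO 4, and Lama4 and the endothelial sum in WT 5. Itga2b is highest in WT 1 and WT 5, whereas the platelet sum is highest in WT 1, dKO 2 and WT 5.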

How the data were processed

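Each library had 1 deposited file of raw counts by gene symbol, not normalized; STAR, HTSeq and the mm9 build are named per the submitters' processing notes. Their versions, the annotation and the strand setting are not stated in the sources used here, so reads of overlapping or antisense genes cannot be told apart. Per the labels' protocols, a fixed volume of diluted ERCC mix was added per number of counted cells, and libraries were made from 350 ng of total RNA. Counter summary rows and the 92 spike-ins were kept out of library sizes.

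Genes kept by filterByExpr (17182, holding 99.9% of gene counts; all 34 described) were tested with edgeR 4.0.16 in R 4.3.3 by the quasi-likelihood test over all 9 libraries with no covariate, Benjamini-Hochberg adjusted p under 0.05, SE as the log2 difference over the root of F. Relative values used TMM; per-cell values used the summed spike-in count as library size. The spread between embryos is the only error, and gene counts per library of 12906561 to 45803152 limit precision for genes near 1 CPM. Same-group libraries differed by more than counting noise (chi-square per degree of freedom 4.25 to 21.3), so none was counted as a duplicate. Alternatives were DESeq2 1.42.0, limma-voom (limma 3.58.1), other normalizations, filters and spike-in scalings, a tested change of at least 1.5-fold, a replicate block, and omitted libraries; omitting WT 1 and dKO 4 together, and each library in turn for chain shares, was chosen after seeing the data. The edgeR steps were tested on simulated counts. These were drawn with the same ratio of gene to spike-in counts in both groups, unlike the data.

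The members and lists were chosen with earlier results of these data known. Values per library are given for members past the threshold and for the most abundant of each role; from each pathway list the 4 genes of smallest adjusted p are named, and from each marker list those of highest CPM. Values of some genes are not reported here. Named after their values were seen were Col4a1, Col4a2, Rpsa, Flt1, Tagln, Acta2, P2ry12, Siglech, Ptprc, Krt14, Trp63, Hes5 and Fabp7. Of other markers, 3 of 12 erythroid, 1 of 9 choroid plexus and 5 of 10 telencephalon genes fell and 0 rose, and 2 of 7 surface ectoderm genes tested rose. Among the most abundant in these lists, Hba-a1 and Dlx1 fell, while Hbb-y, Hba-x, Ttr, Otx2, Clic6, Lhx2 and Pax6 did not pass. Exon lengths came from GENCODE M21 and may differ from the authors' annotation.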

Additional observations from a re-analysis of the deposited data

Results flagged for a closer look

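Over the 34 genes, the CPM of each group were searched for 1 library standing apart from the rest of its group by Dixon's test, and 3 of 68 group values were picked out. Chance alone picks about 1 in 20. Itga3, a laminin receptor subunit, was at 20.2 CPM in WT 1 and at 11.2 to 12.9 in the other WT libraries. Itga10, a collagen receptor subunit, was at 2.42 CPM in dKO 1 and at 3.28 to 3.36 in the other dKO libraries. Itga11, also a collagen receptor subunit, was at 8.34 CPM in dKO 1 and at 12.6 to 13.4 in the other dKO libraries.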

How the results depend on the processing

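Relative to the library, 12 genes rose with DESeq2, without a low-count filter and with DESeq2 size factors or upper quartile scaling in edgeR, and 11 with limma-voom or a mean count of at least 50. With a tested change of at least 1.5-fold, 0 rose relative to the library (3 at an unadjusted p under 0.05) and 6 per cell, against 182 and 701 of all 17182 genes. Without WT 2, 3 and 4, 3 rose relative to the library and 20 per cell, against 407 and 8425 of all genes. Leaving out 1 library at a time gave 8 to 12 relative rises, 0 to 1 relative falls and 21 to 29 per-cell rises. The 1 fall, without WT 1 alone and also 1 without WT 1 and dKO 4, was Nid2; the cause was not tested. Lama1, Lamb2, Lamc1, Itga5, Itga1, Itgal, Itgb1 and Itgb8 passed in all of these single omissions. RNA per spike-in count differed by 0.446 without WT 2, 3 and 4 (exact p = 0.0667, the smallest that 2 against 4 libraries allow). From counts not divided by length, the share among integrin beta subunits differed by -5.37 points for Itgb1 (-3.17 per length; the groups overlapped only per length) and 6.10 for Itgb8 (3.49 per length).

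Same-numbered WT and dKO libraries did not deviate together (correlations of -0.16, -0.13, -0.29 and 0.16), so the numbers were not taken as pairs. With a replicate block, 10 relative rises (9 of them among the 12) and 25 per-cell rises (23 shared) passed the threshold. Itgav and Itgb5 were among those then no longer past it, and Nid1 passed (adjusted p = 0.0351). Over all members and alternatives, 587 relative results kept their side of the threshold, 45 lost a call and 7 gained one; per cell these were 567, 63 and 9. No called direction reversed. Genes near 1 CPM (Itgal, Itgam, Itgb2, Itgb4, Lamb3, Lama3, Itga7) rest on few reads. Their differences relative to the library have wide errors (SE 0.23 to 0.50).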
